A study of Mus musculus with 3 samples.

Results

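The simple epithelial keratins Krt7, Krt8, Krt18, Krt19, Krt20 and Krt23 were followed in cultured mouse dental epithelial cells after siRNA against another keratin, Krt15. The 6 genes were taken by name, and all 7 array probes that carry one of these names were used, of 56598 probes (24812 genes with a RefSeq name) that had values on all 3 arrays. Krt8 had 2 probes and the other genes 1 each. The cells were CLDE, a line made from the cervical loop of the mouse incisor, where the dental epithelial stem cells lie. They were harvested 72 h after transfection, and the 3 groups were siKrt15 (siRNA duplex against mouse Krt15), siNeg (non-targeting control siRNAs) and mock (labelled only as a mock transfection). RNAiMax lipid reagent is given for the siRNAs. Each group is 1 array hybridised with Cy3-labelled cRNA, all from this 1 line. The title and source name of the siKrt15 and siNeg arrays contradict their description and treatment fields, which give the opposite siRNA. Groups follow the titles here. By the descriptions, siKrt15 and siNeg change places. The sign of every difference between them then turns, and their differences against mock are exchanged.

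Keratins are the intermediate filament proteins of epithelia. A filament is built from equal amounts of a type II and a type I keratin, and each type is unstable without a partner of the other. Krt5 and Krt14 fill the basal cells of stratified epithelia, while Krt8 and Krt18 are the main pair of simple, single-layered epithelia and the first keratins of the embryo. Of the 6 genes, Krt7 and Krt8 encode type II and Krt18, Krt19, Krt20 and Krt23 type I proteins. Krt7 and Krt19 are typical of ducts and glands. Krt20 is known from intestinal epithelium, urothelial umbrella cells and Merkel cells, the touch receptors of skin. Krt23 is a less studied type I keratin.

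Each gene was read by 60-base oligos. The first 30 bases of each are shown, 5′ to 3′, because every value below rests on them, with the position of the whole probe on mm9. Exon and UTR annotation of that build was not used here.
Krt7 (NM_033073, chr15:101253718-101253777, + strand): cagcatcgcagaggctgaggaacaagggga
Krt8, probe 1 (NM_031170, chr15:101827214-101827273, - strand): ccgaggatcagccctaatcctctggccaac
Krt8, probe 2 (AK166854, chr15:101827138-101827197, - strand): ccatccaaacccaattcagttgtattttct
Krt18 (NM_010664, chr15:101862341-101862400, + strand): ggatggcagagtggtgtccgagactaatga
Krt19 (NM_008471, chr11:100002392-100002451, - strand): acggaggcccgttatggagtccagctgtca
Krt20 (NM_023256, chr11:99289776-99289835, - strand): ataagaacacagcacaaggtgattgacatg
Krt23 (NM_033373, chr11:99339393-99339452, - strand): tccgcgctaatgggtgagtctcgacggaaa
The probes of Krt8 do not overlap and give separate readings of that gene. A pseudogene, Krt8-ps on chromosome 7, is listed by RefSeq, and its share in the Krt8 signal was not tested.

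Values are the scanner's processed signal, a background-subtracted intensity in arbitrary units, and log2 differences taken after each array's 75th percentile was subtracted. The siKrt15 array had a percentile of 216.0, the siNeg array 180.4 and the mock array 191.1. Well above background were 67.3% of spots that are not controls in siKrt15, 69.2% in siNeg and 69.0% in mock, and 0 spots were saturated on each array. The error beside a difference is the SD of the scanner's error model, which is close to 0.20 for any bright probe and covers 1 hybridisation, not separate cultures. With 1 array per group no test across arrays was possible, so counts use a cut of 2-fold either way. The 3 arrays were on 1 slide. The siRNA target, Krt15, read 267 in siKrt15, 1647 in siNeg and 2638 in mock, so the low array is the one titled siKrt15 and described as siNeg. Basal epithelial markers were present: of 13 dental and basal epithelial markers, 10 were well above background in siKrt15 and 11 in each control. Ambn, an enamel matrix gene, and Shh, a signalling ligand, were not well above background on any array. Amelx, also an enamel matrix gene, read 4.03 in siKrt15, 5.00 in siNeg and 4.83 in mock. It was well above background in the controls alone, and close to the lowest such signal there.

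On the siKrt15 array Krt8, Krt18 and Krt19 stood above both controls, Krt7 slightly so, while Krt20 and Krt23 were well above background in the controls alone. Of 4 members measured (well above background on both arrays), Krt8 and Krt19, or 2, exceeded siNeg by 2-fold or more, and 0 fell short of it by as much. Of all 17121 genes measured against siNeg, 1.70% passed 2-fold upward and 2.0% downward. Against mock 1 of 4, Krt8, passed 2-fold upward and 0 downward, beside 2.18% and 1.24% of 17130 genes. Between the controls 0 of 6 members differed by 2-fold, beside 0.356% of 17416 genes that passed it upward in siNeg and 0.0459% downward. The members' median difference over the 4 measured was 0.97 against siNeg and 0.81 against mock, beside −0.08 and −0.06 for all genes. That median leaves out Krt20 and Krt23, which were not well above background in siKrt15 and have bounds below 0.

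**Figure D1:**
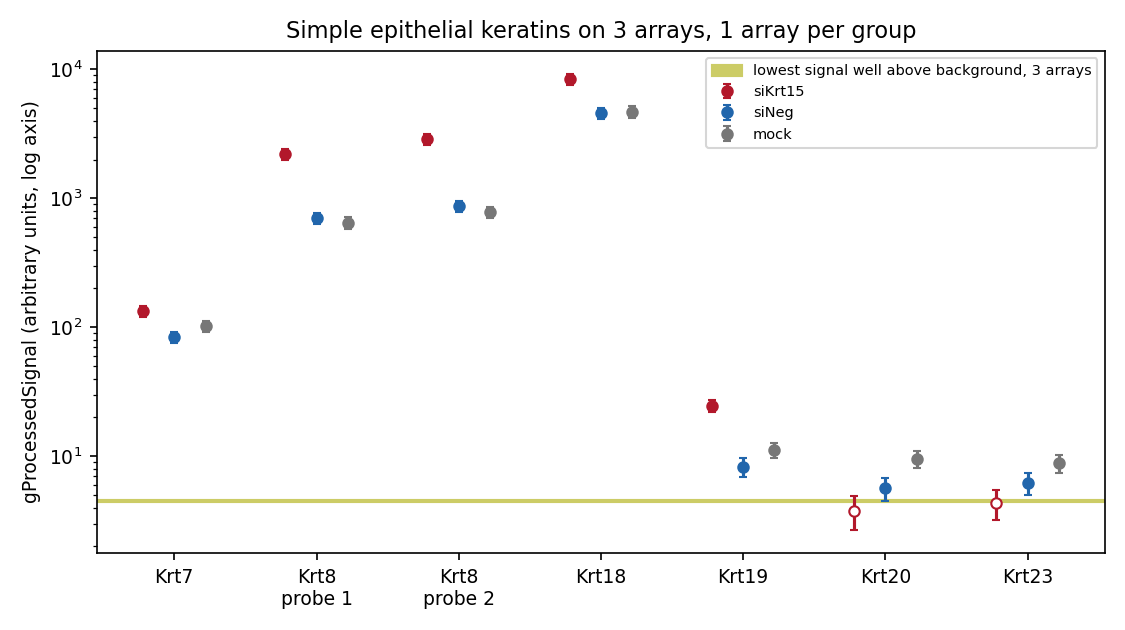
Processed signal (log axis, arbitrary units) of the 7 probes on the siKrt15, siNeg and mock arrays, with the scanner's error-model SD; open points were not well above background. The siKrt15 point is the highest for Krt7, both Krt8 probes, Krt18 and Krt19, and the lowest, near the lowest signal that was well above background, for Krt20 and Krt23.

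Krt8, the type II keratin of simple epithelia, was read by both of its probes. Probe 1 read 2194 in siKrt15, 704 in siNeg and 646 in mock, with error-model SDs of 219, 70.4 and 64.6. Probe 2 read 2892 in siKrt15, 865 in siNeg and 785 in mock. Both probes thus put the siKrt15 array high and the controls close together. The difference over both probes was 1.43 ± 0.20 against siNeg, or 2.70-fold (probes 1.38 and 1.48), and 1.65 ± 0.20 against mock, or 3.13-fold (probes 1.59 and 1.70). In siNeg Krt8 stood 0.22 ± 0.20 above mock. Only 0.736% of genes had a higher difference than Krt8 against siNeg and 0.654% against mock. Among genes at or above the median signal, where Krt8 lies, 0.864% passed 2-fold upward against siNeg and 1.23% against mock.

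Krt18, the type I partner of Krt8, read 8441 in siKrt15, 4554 in siNeg and 4709 in mock. Again the siKrt15 array was high and the controls nearly equal. The difference was 0.63 ± 0.20 against siNeg, or 1.55-fold, and 0.66 ± 0.20 against mock, or 1.59-fold, with siNeg at 0.03 ± 0.20 against mock. Krt18 did not reach 2-fold. Past 1.5-fold upward were 4.80% of all genes against siNeg and 5.83% against mock, and 3.04% and 3.88% of those at or above the median signal, with Krt18 among them. The partners did not differ by the same amount. The Krt8 difference exceeded that of Krt18 by 0.80 ± 0.29 against siNeg and by 0.98 ± 0.29 against mock, each over 2 error-model SDs, and by 0.18 ± 0.29 in siNeg against mock. Any constant that scales a whole array drops out of this contrast. It shows unequal change of the pair's probes and says nothing of how much of each protein the cells held.

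Krt8 and Krt18 are neighbours on chromosome 15, with 0 protein-coding genes between them in RefSeq order, although one encodes a type II and the other a type I keratin. Their start regions are shown because these 2 genes were higher together. Each is the RefSeq window on GRCm38.p6 from 250 bases before to 50 after the annotated start, 5′ to 3′ on the gene's strand, and capitals mark letters of any motif searched.
Krt8 (chr15:102004293-102004592, - strand): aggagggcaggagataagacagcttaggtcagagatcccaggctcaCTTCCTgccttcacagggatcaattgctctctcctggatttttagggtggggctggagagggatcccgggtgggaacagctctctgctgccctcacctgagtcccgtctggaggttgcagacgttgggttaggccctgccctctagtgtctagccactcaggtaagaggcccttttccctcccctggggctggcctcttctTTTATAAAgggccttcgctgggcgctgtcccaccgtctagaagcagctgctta
Krt18 (chr15:102027966-102028265, + strand): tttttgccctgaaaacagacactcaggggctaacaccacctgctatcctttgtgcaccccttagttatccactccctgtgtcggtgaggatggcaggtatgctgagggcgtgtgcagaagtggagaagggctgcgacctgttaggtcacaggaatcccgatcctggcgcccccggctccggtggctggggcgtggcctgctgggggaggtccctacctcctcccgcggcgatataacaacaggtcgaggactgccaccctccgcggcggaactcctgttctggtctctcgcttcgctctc
Motifs were searched on both strands in 32851 RefSeq windows of this length. The TATA box, searched as TATAAA, was found in 13.6% of these windows. The GC box, searched as GGGCGG, was found in 35.7% of them. The AP-1 site, searched as TGANTCA, was found in 7.81% of them. A core bound by ETS factors, searched as AGGAAG, was found in 35.4% of them. The Krt8 window held AGGAAG once, on the opposite strand, and TATAAA once on each strand in overlapping letters that span its annotated start. The Krt18 window held 0 matches to the 4 motifs. A window was found for 5 of the 6 genes. The Krt7 window held 4 matches to GGGCGG and 1 to AGGAAG. The Krt20 window held 1 match to TATAAA and 2 to AGGAAG, and the Krt23 window held 0. No motif of the 4 was thus shared by the Krt8 and Krt18 windows.

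Krt7, the other type II member, read 133 in siKrt15, 83.5 in siNeg and 102 in mock. Again siKrt15 was the highest, but mock lay closer to it than siNeg did. The difference was 0.41 ± 0.20 against siNeg, or 1.33-fold, and 0.21 ± 0.20 against mock, or 1.16-fold, beside −0.20 ± 0.21 in siNeg against mock. Against mock the Krt7 difference was 1.02 times its error-model SD, and 20.4% of all genes lay higher. The Krt8 difference exceeded that of Krt7 by 1.02 ± 0.29 against siNeg and 1.44 ± 0.29 against mock.

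Krt19, a type I keratin of ducts and glands, was dim. It read 24.6 in siKrt15, 8.25 in siNeg and 11.2 in mock, with error-model SDs of 2.69, 1.38 and 1.55. Before background subtraction the spot's mean pixel signal was 42.9 over a local background of 22 in siKrt15, 27.9 over 21 in siNeg and 29.8 over 20 in mock. The control spots thus stood closer to their local background than the siKrt15 spot did. The difference was 1.32 ± 0.29 against siNeg, or 2.49-fold, and 0.96 ± 0.26 against mock, or 1.95-fold. The Krt8 difference exceeded that of Krt19 by 0.69 ± 0.33 against mock, but by 0.11 ± 0.35 against siNeg, within its error. Against siNeg Krt19 stood higher than Krt8 with quantile normalization (1.57 for Krt19, 1.45 for Krt8) and with the signal trend removed (1.60 for Krt19, 1.46 for Krt8). siNeg stood at −0.36 ± 0.31 against mock, so the choice of control moved the value across 2-fold. Among genes below the median signal, where Krt19 lies, 2.54% passed 2-fold upward against siNeg and 3.14% against mock. With normexp, a background model that adds an offset of 50 to each signal and so compresses dim probes, Krt19 was 0.09 higher against each control. In RefSeq order Krt19 lies next to Krt15 on chromosome 11, with 0 protein-coding genes between the 2, and their differences in siKrt15 had opposite signs.

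Krt20 and Krt23, also type I and also neighbours on chromosome 11, with 0 protein-coding genes between them, lay at the limit of detection. Krt20 read 3.77 in siKrt15, 5.65 in siNeg and 9.52 in mock, with error-model SDs of 1.11, 1.16 and 1.39. Its mean pixel signal was 23.1, 25.2 and 28.2 in the same order, over a local background of 18 on each array. Krt23 read 4.37 in siKrt15, 6.24 in siNeg and 8.83 in mock, with error-model SDs of 1.14, 1.22 and 1.38. For both genes siKrt15 was lowest and not well above background, siNeg lay between, and mock was highest. A bound was therefore formed against the lowest signal that was well above background in siKrt15, 4.51, after scaling. With the 75th-percentile scaling, Krt20 was at least 1.5-fold lower against siNeg (log2 bound −0.59), and against mock at least 2.39-fold lower (−1.26). With the same scaling, Krt23 was at least 1.66-fold lower against siNeg (−0.73), and against mock at least 2.22-fold lower (−1.15). Each bound rests on 1 spot per array, takes no account of the error-model SD and holds for the 75th-percentile scaling. Against siNeg it shrank to −0.14 for Krt20 and −0.29 for Krt23 with quantile normalization, to −0.16 and −0.31 with the signal trend removed, and to −0.32 and −0.46 with spike-in scaling. With normexp it was −0.26 for Krt20 and −0.23 for Krt23. The error-model SD of these differences was 0.52 for Krt20 and 0.47 for Krt23, so neither gene was clearly lower than in siNeg. Over all genes, 3.93% were well above background in siNeg and not in siKrt15, 3.23% in mock and not in siKrt15, and 2.0% (496 of 24812) in both controls and not in siKrt15. Genes below the median signal had a median difference of −0.15 against siNeg and −0.13 against mock, and with spike-in scaling these medians were 0.12 and −0.02. The part of this shift in Krt20 and Krt23 was not tested. Against mock the bounds shrank to −0.92 for Krt20 and −0.81 for Krt23 with quantile normalization, and to −0.26 and −0.20 with normexp.

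**Figure D2:**
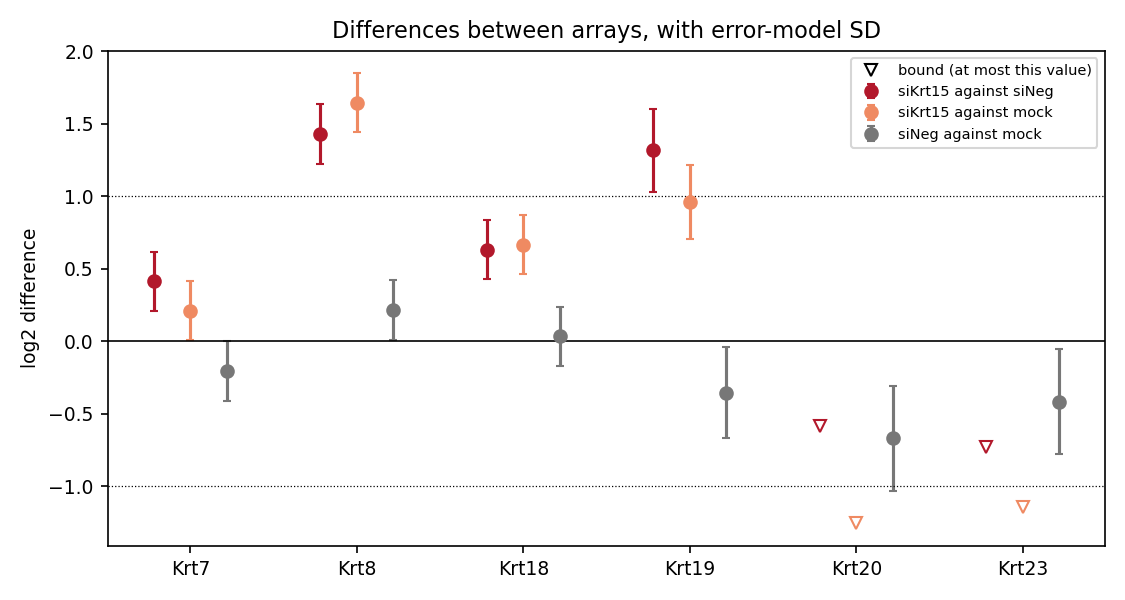
Log2 differences of the 6 genes in 3 comparisons, with error-model SD as bars and open triangles for bounds; dotted lines mark 2-fold. Krt8 lies above the upper line against both controls (1.43 and 1.65), Krt19 against siNeg alone (1.32), and the siNeg against mock values of all 6 lie inside both lines.

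The control arrays were not identical for these genes. In siNeg against mock the 6 members ranged from −0.67 ± 0.36 for Krt20 to 0.22 ± 0.20 for Krt8, with 2 above 0 and 4 below. Krt20 was 1.59-fold lower in siNeg and the only member past 1.5-fold there, beside 0.856% of all genes past 1.5-fold downward. That difference was under 2 of its error-model SDs. Krt18 lay nearest to 0, at 0.03. The signs between the controls were less firm than the siKrt15 signs of Krt7, Krt8, Krt18 and Krt19. Over the settings Krt18 reached −0.13, and Krt19, Krt20 and Krt23 turned above 0 in at least 1 setting, while Krt7 stayed below 0 and Krt8 above it. For Krt8 and Krt18 the siKrt15 differences were several times the difference between the controls, while for Krt7 the control arrays differed by as much as siKrt15 and mock. The comparisons against siNeg and mock share the siKrt15 array, so their like signs are not separate evidence.

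**Figure D3:**
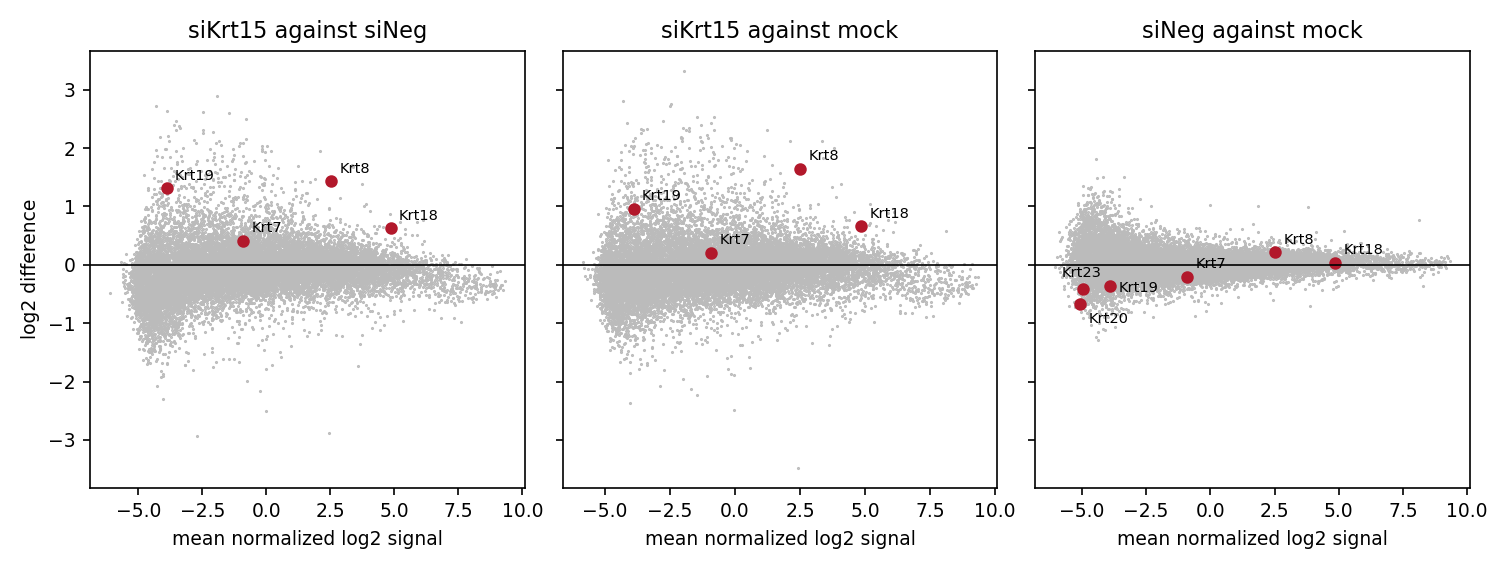
Each grey point is a gene measured on both arrays, by mean normalized log2 signal over the 3 arrays (horizontal) and log2 difference (vertical), and red points are the simple keratins. Among bright genes Krt8 lies near the upper edge in both siKrt15 comparisons and Krt18 below it, Krt19 lies among dim genes, whose spread is wider, and all 6 lie within 0.67 of 0 in siNeg against mock.

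None of the 11 settings turned the direction of a siKrt15 difference of Krt7, Krt8, Krt18 or Krt19 where it gave one. For Krt20 and Krt23 a bound can only lie below 0, so its sign over the settings is no check. Their differences could turn only with no filter on dim probes, and lay below 0 there. Over 11 settings Krt8 ranged from 1.39 to 1.70 against siNeg and from 1.61 to 1.75 against mock, past 2-fold in all 11. Krt18 ranged from 0.59 to 0.90 and from 0.63 to 0.77, under 2-fold in all 11. The filters on dim probes left both genes as they were, and the deposited table nearly repeats the main scaling. The 11 settings are thus not separate checks. Krt19, which had a value in 10 settings, ranged from 0.09 to 1.60 against siNeg, past 2-fold in 9, and from 0.09 to 1.23 against mock, past 2-fold in 4. Krt7 ranged from 0.25 to 0.68 and from 0.15 to 0.31. Scaling on the spike-in controls moved the median of all genes to 0.19 against siNeg and 0.04 against mock, and removing the signal trend moved it to 0.04 and 0.05. Relative to the median of all genes in each setting, Krt8 stood 1.42 to 1.63 higher against siNeg and 1.59 to 1.80 against mock. The split of 2-fold calls over all genes depended on scaling. Higher genes made up 46.0% of calls against siNeg. Spike-in scaling raised this to 82.6%, normexp to 78.1%, removal of the signal trend to 77.3% and quantile normalization to 72.6%. Against mock they made up 63.7%, and 77.2%, 81.0%, 84.6% and 82.2% under the same 4 settings in that order. In siNeg against mock they made up 88.6%, but 54.3% with spike-in scaling.

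**Figure D4:**
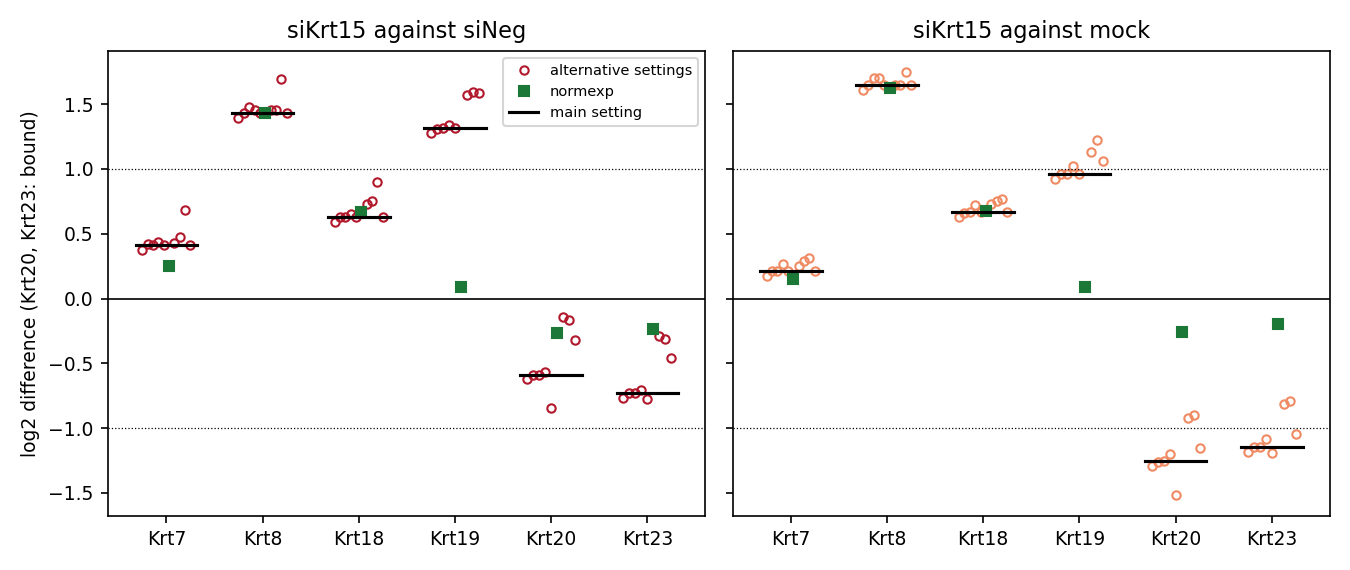
Log2 differences of the 6 genes in siKrt15 against each control under the main setting (black line) and the alternatives (open circles), with normexp as green squares; for Krt20 and Krt23 the values are bounds, except with no filter on dim probes. Krt8 stays above 1 in every setting and Krt18 below it, while Krt19 drops to 0.09 with normexp.

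Stratified keratins were read in the same way. Of 22 stratified keratins listed, 19 were measured, with a median of −0.16 against siNeg and −0.11 against mock. Past 2-fold against siNeg were 0 upward and 1 downward, the target Krt15. Past it against mock were 1 upward and 1 downward, again Krt15. That higher gene was Krt6b, a keratin of stressed and wounded epithelium, at 1.18 ± 0.20 against mock and 0.62 ± 0.20 against siNeg, and already 0.57 higher in siNeg than in mock. The basal pair Krt5 and Krt14 lay at −0.11 and −0.16 against siNeg, values that turned above 0 in the highest setting (0.25 and 0.21). Against mock they lay at 0.02 and −0.11, and ranged over the settings from −0.02 to 0.33 and from −0.15 to 0.23. Against siNeg, Krt6a stood at −0.12 (0.23 in its highest setting), Krt16 at 0.03 (−0.01 in its lowest) and Krt17 at −0.44, below 0 in all 11. Against mock, Krt6a stood at −0.07 (0.25 in its highest setting) and Krt17 at −0.32 (0.0016 in its highest). Krt16 stood at 0.47 ± 0.20 against mock, from 0.43 to 0.57 over the 11 settings, and was already 0.44 higher in siNeg than in mock. The lowest after Krt15 against siNeg were Krt2 at −0.81 and Krt24 at −0.81, and these 2 kept their sign in all 11 settings. Above 0 against siNeg were all 4 measured simple keratins and 4 of the 19 stratified keratins, beside 39.4% of all genes. The filter leaves out the simple keratins Krt20 and Krt23, which were not well above background in siKrt15. With no filter on dim probes these lay at −0.84 and −0.77 against siNeg, and 4 of 21 stratified keratins lay above 0. The count of stratified keratins moved with the scaling: it was 14 of 19 with spike-in scaling, where 72.3% of all genes lay above 0, 11 with the signal trend removed (55.9%) and 9 with quantile normalization (51.6%). This contrast was not tested, since the members were chosen with earlier results known.

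**Figure D5:**
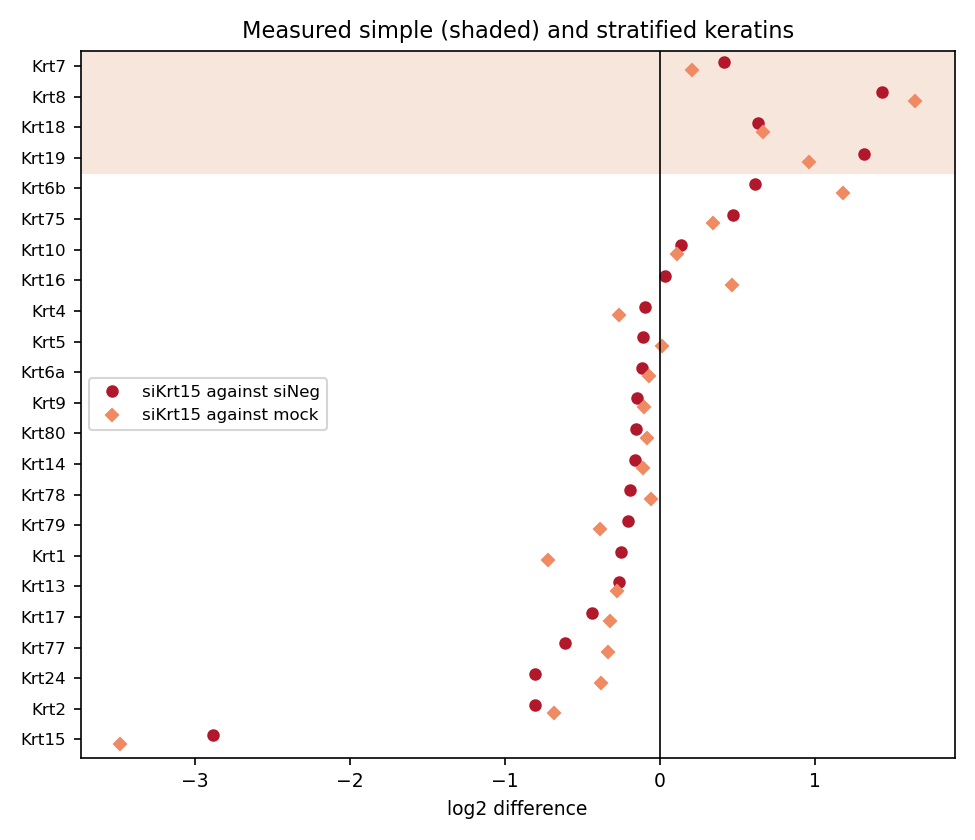
Log2 differences of the 4 measured simple keratins (shaded) and the 19 measured stratified keratins in siKrt15 against siNeg (circles) and against mock (diamonds). Krt20 and Krt23, not well above background in siKrt15, are not shown. The shaded genes lie to the right of 0 in both comparisons, 15 of the 19 stratified keratins lie left of 0 against siNeg (5 of 19 with spike-in scaling), and Krt15 lies far left at −2.88 and −3.48.

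Genes whose products hold or modify keratin filaments formed another list. Of 26 listed, 24 were measured, and 0 passed 2-fold either way against siNeg or mock, with medians of −0.14 and −0.16. Eppk1 (epiplakin), a plakin that binds keratins, was lowest, at −0.87 ± 0.20 against siNeg and −0.69 ± 0.20 against mock. Sqstm1, the autophagy adaptor found in keratin aggregates, stood at −0.64 and −0.78, and the small heat shock protein Hspb1 at −0.59 and −0.66. The keratin-binding Fbf1 was highest, at 0.47 and 0.75, followed by the desmosomal cadherin Dsg2 at 0.41 and 0.47. These 5 kept their sign in all 11 settings. The Dsg2 value comes from 1 of its 3 probes.

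Among transcription factors tied to simple keratin genes or to epithelial identity, 26 of 28 were measured and 0 differed by 2-fold, with medians of 0.04 against siNeg and −0.04 against mock. Members of AP-1, a dimeric factor, went different ways. Fos was highest at 0.83 ± 0.20 against siNeg and 0.90 ± 0.20 against mock, and Jun was among the lowest at −0.66 and −0.65. The epithelial ETS factor Ehf stood at 0.80 and 0.86 (its probes 0.55 to 1.09 against siNeg), the grainyhead factor Grhl3 at 0.57 and 0.48 and the Krüppel-like factor Klf5 at −0.62 and −0.71. Each of these kept its sign in all 11 settings.

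Surface and junction genes of simple epithelia included 22 measured of 25 listed, with a median of 0.13 against siNeg and 0.19 against mock. Above 0 were 16 of them against siNeg and 15 against mock, beside 39.4% and 41.9% of all genes. With spike-in scaling these counts were 21 and 17, beside 72.3% and 55.0% of all genes, and with normexp 13 and 14, beside 32.9% and 37.3%. In both comparisons 1, the embryonic tight junction protein Cldn6, passed 2-fold upward and 0 downward. Cldn6 read 113 in siKrt15, 31.8 in siNeg and 37.8 in mock, a difference of 1.57 ± 0.21 and 1.40 ± 0.21, with 0.68 and 0.66 as the lowest over the settings. Cldn1, another claudin, stood at 0.83 and 0.61, and the junction scaffold Tjp3 at 0.59 and 0.70. Their lowest values over the settings were 0.10 and 0.10 for Cldn1, and 0.35 and 0.41 for Tjp3. Prom1 was lowest of the list, at −0.70 ± 0.23 against siNeg and −0.56 ± 0.23 against mock, from 1 of its 3 probes. It stayed below 0 in the 10 settings that gave it a value. E-cadherin (Cdh1), an adherens junction cadherin of epithelia, stood at −0.24 and −0.18, and turned to 0.03 against siNeg in 1 setting or more. The 4 gene groups were listed with results of these arrays already known, so their counts describe these arrays only.

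Markers of other cells that carry simple keratins were read beside these values. Of 9 Merkel cell markers, 5 were well above background in siKrt15, 7 in siNeg and 6 in mock. Krt20 itself is in that list, and the Merkel factor Atoh1 read 1.03, 1.05 and 1.04 and was not well above background on any array. Of 5 mesothelial markers 2 were well above background on each array, and the list's summed signal was 13146, 11330 and 9271, nearly all of it from Msln. Of 4 umbrella cell markers 3 were well above background in siKrt15, 2 in siNeg and 2 in mock, with sums of 152, 123 and 129. Upk2, at 13.2, 1.33 and 3.01, was above background in siKrt15 alone, so it had no measured difference, and it is named after its values were seen. Of 6 trophoblast markers 4, 5 and 4 were well above background, with sums of 5404, 4519 and 5920, and of 6 intestinal markers 3 on each array, with sums of 60.5, 50.5 and 55.0 and with Vil1 and Cdx2 not well above background on any. Of the 9 mesenchymal markers 7 were well above background on each array, with sums of 342, 376 and 401, and of 7 endothelial and blood markers 5, with sums of 2836, 2725 and 2963. The Merkel list summed to 913, 851 and 928. The sums are signals before scaling. After it, 0 measured markers of these lists passed 2-fold upward in siKrt15 against either control. Past 2-fold downward against siNeg were 1 Merkel marker (Insm1, −1.71), 1 umbrella cell marker (Upk3a, −1.06) and 1 mesenchymal marker (Dcn, −1.07), and against mock Insm1 (−1.56) and Dcn (−1.20), all named after their values were seen. The median difference against siNeg was −0.28 for Merkel, −0.52 for umbrella cell, −0.58 for mesenchymal, −0.15 for mesothelial, −0.26 for endothelial and blood, 0.12 for trophoblast and 0.01 for intestinal markers. Against mock the medians were −0.14, −0.22, −0.38, 0.27, −0.28, 0.05 and 0.02 in that order. The part of such cells in the keratin values was not tested, and in a bulk sample more cells of a kind and more RNA per cell cannot be told apart.

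The genes nearest to each member were sought among 11671 named genes measured on all 3 arrays, at or above the 25th percentile of mean signal. Nearness was the distance between genes in the plane of their siKrt15 differences against siNeg and against mock, over 3 arrays. Nearest to Krt8 were Cdc25c (1.45 and 1.64, distance 0.0159), Top2a (1.45 and 1.65, distance 0.0161) and Aurka (1.43 and 1.71, distance 0.0624). Nearest to Krt18 were Pdxp, Mylip and Fzd2, at distances from 0.00426 to 0.0122. Nearest to Krt19 were Fgfbp1 (1.32 and 1.02), Zfp101 (1.38 and 0.93) and Aldh3b2 (1.31 and 1.08), at distances from 0.0595 to 0.121. The error-model SDs of 0.20 and more exceed all these distances, so neither the choice of each 3 nor the order within it has weight. With 3 arrays many genes share a pattern. Over the 11 settings the lowest values against siNeg were 1.39 for Krt8, 0.68 for Cdc25c, 1.02 for Top2a and 1.38 for Aurka. For Krt19 the lowest was 0.09, beside 1.16 for Fgfbp1, 0.40 for Zfp101 and 0.90 for Aldh3b2.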

How the data were processed

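Per the labels' protocols, Cy3-labelled cRNA was made from total RNA of 3 CLDE samples for arrays of 1 colour. Feature Extraction 11.5.1.1 is named in the submitters' processing notes. The extraction protocol GE1_1105_Oct12 and the build mm9 are given per the file headers. The deposited scanner files hold each spot's processed signal as an intensity, with an error-model SD. The authors deposited a value table on the log2 scale. It followed the log2 processed signal minus a constant near each array's 75th percentile, uncentred by gene, within 0.01 for 92.4% (siKrt15), 94.0% (siNeg) and 93.8% (mock) of probes. Its column medians were −3.72, −3.51 and −3.52.

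Control and outlier spots were left out (85, 68 and 69 outliers), and spots of a probe were averaged on the log2 scale (median SD of 0.05 on each array over 300 probes spotted 10 times). The 75th percentile over probes was subtracted. Probes were named through RefSeq (GRCm38.p6) by accession (32989), symbol (10224) or synonym (520), and 12865 unmatched probes stayed out of gene counts. Differences of a gene were averaged over those probes that were well above background and unsaturated on both arrays. A probe well above background on 1 array only got a bound, its bright value set against the dim array's own value or that array's detection floor (its lowest signal well above background), whichever was higher. Named genes were the 6 members, Krt15, listed stratified keratins, up to 3 highest and lowest genes of each list by the siKrt15 to siNeg difference, and the 3 nearest genes. Members and lists were chosen with earlier results of these data known. Tools were Python 3.11.15, statsmodels 0.14.6 and limma 3.58.1 (normexp). The difference and count steps were tested on simulated arrays in which the changes set were all past 2-fold. Noise there was drawn without regard to signal, and bounds and smaller changes were not simulated. The number of arrays limits the precision. Alternatives were other scalings, normexp, filters on dim probes, the brightest probe, the deposited table and a threshold of 1.5-fold.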

Additional observations from a re-analysis of the deposited data

How the results depend on the processing

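The count of members at least 2-fold different in siKrt15 against siNeg, 2 in the setting reported, was 1 with normexp and 1 with the stricter filter on dim probes, which leaves Krt19 out, and 2 or 3 otherwise. Against mock the count of 1 became 2 with the median of bright probes, quantile normalization, spike-in scaling or the signal trend removed, and 3 at 1.5-fold or with no filter, where Krt20 and Krt23 enter as lower. Between the controls the count of 0 was 1 at 1.5-fold (Krt20, lower) and 0 in all other settings. The members' median against siNeg moved to 0.46 with normexp, 0.52 with no filter, 0.63 with the stricter filter and 1.24 with spike-in scaling, and against mock to 0.41 with normexp and 0.44 with no filter. In siNeg against mock it moved to 0.0059 with normexp and 0.035 with the stricter filter. Of 171 values of single members under the alternatives, 159 stayed within 1 error-model SD and 0 counted as a change of sign in a difference past 2-fold. Of the other 12, normexp gave 8, spike-in scaling 3 and removal of the signal trend 1. The bounds of Krt20 and Krt23 in siKrt15 could not change sign. For Krt19, Krt20 and Krt23, with signals under 25, normexp's offset exceeds the signal itself. Over all genes, 2-fold calls against siNeg numbered 291 higher and 342 lower, but 82 and 23 with normexp, 564 and 119 with spike-in scaling, 384 and 145 with quantile normalization, 425 and 125 with the signal trend removed, 477 and 2070 with no filter, and 226 and 74 with the stricter filter. Against mock they numbered 374 and 213, but 102 and 24, 471 and 139, 477 and 103, 545 and 99, 646 and 1549, and 290 and 79 in that order. In siNeg against mock they numbered 62 and 8, but 0 and 0 with normexp, 25 and 21 with spike-in scaling, 836 and 413 with no filter and 4 and 0 with the stricter filter. No paired analysis was possible because each group holds 1 array, and for the same reason no array could be left out.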
